A study of Homo sapiens with 4 samples.

Results

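The genes described here encode enzymes and remodelling factors of chromatin. Some are lysine demethylases (KDM), lysine methyltransferases and other SET domain proteins (KMT and SETD), Polycomb repressive complex 2 (EZH1, EZH2, EED) and histone deacetylases (HDAC). Others are DNA methylation enzymes (DNMT and TET), SWI/SNF and related remodellers (SMARC and ARID), ASXL proteins, bromodomain proteins (BRD) and CHD remodellers. All these genes were taken by symbol from lists of peaks of N6-methyladenosine (m6A). Of the 7957 gene symbols with a listed peak in either cell line, 72 met the rule, 70 of them in A549/DDP and 57 in A549. The lines were A549/DDP, labelled as cisplatin-resistant, and A549, labelled as cisplatin-sensitive. A549 cells are an established line from a human lung adenocarcinoma, known to carry an inactivated SMARCA4 gene, and the labels name no drug exposure at harvest for either line. For each line the study made 1 library from RNA fragments captured by an anti-m6A antibody, 1 input library (MeRIP-seq) and 1 peak list. With 1 library per group there was no replicate check and no test between the lines, so every comparison describes these libraries. Because the lists give no read counts, the depth is unknown, and a gene without a listed peak may have been scarce rather than unmodified. Fewer modified molecules and less RNA of a gene cannot be told apart.

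m6A is placed on nascent messenger RNA by a methyltransferase complex around METTL3 and METTL14, mostly in long internal exons and near stop codons, and it commonly shortens the life of a transcript. Histone-modifying enzymes write or erase marks that set whether a gene is open or silent. SWI/SNF, ISWI and CHD complexes use ATP to move or evict nucleosomes.

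A peak is a stretch of transcript enriched in the pull-down over the input. Its fold enrichment and p-value are the authors' own, used only to describe and rank peaks within a list. Many peaks had the same fold and p as a peak of another gene. This held for 45.9% of member peaks in A549/DDP and 48.9% in A549, against 39.8% and 38.1% of all peaks. A strong peak here is one whose p is below the median of its list, 5.13e-08 in A549/DDP and 9.12e-08 in A549. Positions are on hg19. Of 11 epithelial and lung markers, keratin genes KRT7, KRT8 and KRT18 had peaks in both lines and CDH1 in A549 alone, while EPCAM, KRT19, NKX2-1, NAPSA, SFTPA1, SFTPB and SFTPC had no listed peak. Of 8 markers of other cell types, CD68 and COL1A1 had peaks in both lines and 6 had none.

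Most members, each of which had a listed peak by the rule, carried m6A peaks in both lines. A peak was listed in both for 55 of the 72 members (76.4%, against 69.5% of all listed genes), in A549/DDP alone for 15 (20.8%, against 18.9%) and in A549 alone for 2 (2.78%, with an exact binomial 95% interval of 0.338 to 9.68, against 11.6%). The share in A549/DDP alone was thus near that of all genes. Members had 595 distinct peaks in A549/DDP and 403 in A549, a ratio of 1.48, against 1.17 for all peaks. Merging overlapping peaks left 204 regions in A549/DDP and 146 in A549, 1.40 times as many, against 1.16 for all genes. Among members listed in both lines, 29 had more regions in A549/DDP (52.7%, against 27.3% of all genes listed in both) and 8 had more in A549 (14.5%, against 17.3%). The number was equal for 18 members (32.7%, against 55.3%). When an equal number of the strongest peaks of each list was kept, 13659 peaks, 47 members stayed listed. The counts of members in a single line drew together, but the peak counts did not. Member peaks then numbered 255 in A549/DDP and 175 in A549, from lists of equal size. Of these 47, 7 were listed for A549/DDP alone (against 16.3% of all genes then listed) and 5 for A549 alone (against 18.9%). Both lines listed 35 of the 47 (against 64.8%). Of the 7 members for A549/DDP alone, 6 had a peak in both full lists, as had all 5 for A549 alone.

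Member transcripts were long. The median length of the longest listed transcript was 5879 bases for members in A549/DDP and 5983 in A549, against 3272 bases in A549/DDP and 3157 in A549 for all genes. The median member had 5 peaks in either list, against 3 for all genes, and 2 regions against 1. Per kilobase of transcript the median was 0.409 regions in A549/DDP and 0.370 in A549, against 0.495 and 0.482 for all genes, so members had more regions per gene but fewer per length. Across the 72 members the number of sites and the transcript length had a Spearman correlation of 0.486, given as a description over genes that share their libraries.

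The peaks of chromatin genes lay mainly in coding sequence. Peaks touching coding sequence made up 84.7% of member peaks in A549/DDP (81.6 to 87.5) and 83.4% in A549 (79.4 to 86.9), against 65.2% and 64.5% of all peaks. Peaks touching the 3′ UTR made up 25% of member peaks in A549/DDP and 29.0% in A549, against 50.4% and 56% of all peaks. Peaks touching the 5′ UTR made up 6.22% of member peaks in A549/DDP and 3.23% in A549, against 13.6% and 8.42%. The intervals cover counting error alone, and since isoforms of 1 gene give overlapping, dependent peaks, they are too narrow.

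**Figure D1:**
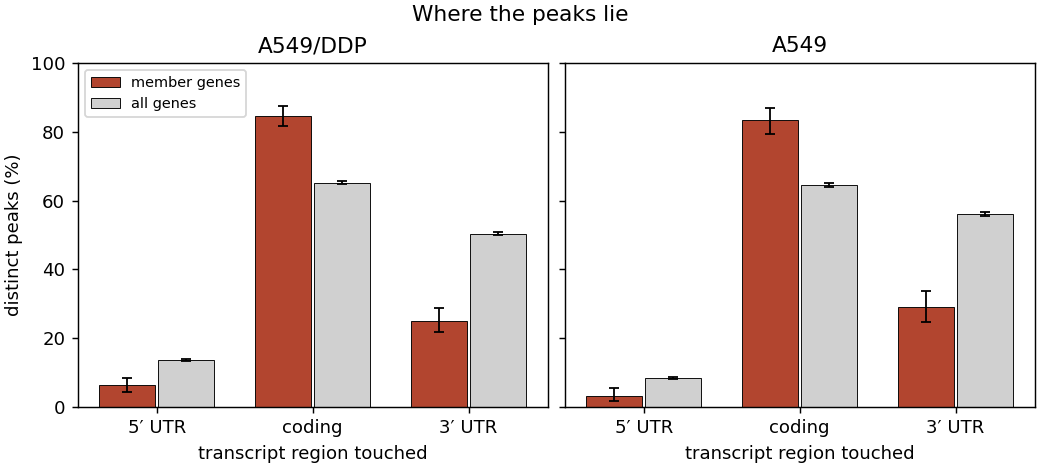
Share of distinct peaks (%) that touch the 5′ UTR, the coding sequence or the 3′ UTR in A549/DDP (left) and A549 (right), for member genes (red) and all genes (grey); a peak can touch more than 1 region, and error bars are exact binomial 95% intervals. In both lines the coding share of members was above 83% and that of all genes near 65%.

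The coding share of members was also above that of other genes with 1 value per gene and within a band of transcript lengths. The peak of smallest p lay wholly in coding sequence for 37 of 70 members in A549/DDP (52.9%) and for 30 of 57 in A549 (52.6%), against 24.5% and 20.9% of all genes. It lay wholly in the 3′ UTR for 13 members in each line (18.6% in A549/DDP and 22.8% in A549), against 38% and 43.5% of all genes. Among peaks on transcripts of 3140 to 7031 bases in A549/DDP, 82.5% of 302 member peaks touched coding sequence, against 61.7% of 10883 peaks of other genes. On transcripts of 3225 to 7328 bases in A549 the shares were 84.8% of 204 member peaks and 59.2% of 8646 others. These length bands are the middle range of the members' own peaks and were chosen after the regions were seen; lengths were not matched within them. Member peaks also crossed exon junctions more often: 48.7% in A549/DDP and 53.3% in A549 lay in a single exon block, against 67.0% and 68.7% of all peaks.

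A smaller share of member peaks had a counterpart in the other list in A549/DDP than in A549. Of the A549/DDP member peaks, 386 of 595 had 1 or more exonic bases, strand included, in common with an A549 peak (64.9%, 60.9 to 68.7), against 67.2% of all A549/DDP peaks. Of the A549 member peaks, 365 of 403 overlapped an A549/DDP peak (90.6%, 87.3 to 93.2), against 78% of all A549 peaks. When peaks of both lists were merged into sites, members had 216 sites: 76 of A549/DDP alone (35.2%, against 30.4% for all genes), 18 of A549 alone (8.33%, against 18.6%) and 122 common to both (56.5%, against 50.9%). In the 55 members listed in both lines 51 of 188 sites were of A549/DDP alone (27.1%, against 21.4%), 15 of A549 alone (7.98%, against 13.9%) and 122 common (64.9%, against 64.7%).

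**Figure D2:**
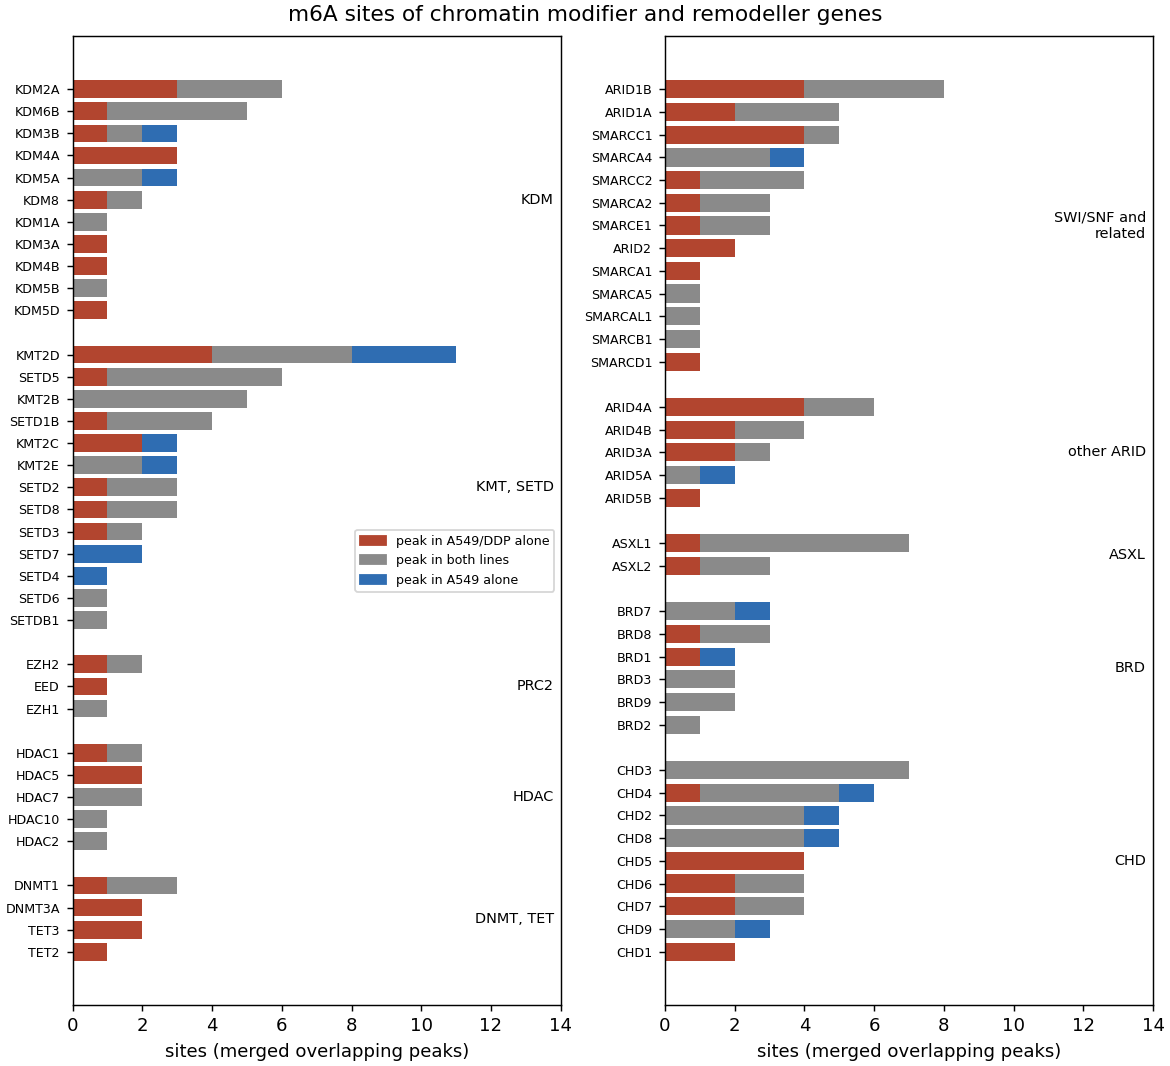
Number of m6A sites (overlapping peaks of both lists merged) of 71 of the 72 members, by family, coloured by line: A549/DDP alone (red), both lines (grey) and A549 alone (blue). KMT2D had the most sites, 11, and CHD3 had 7 sites that were all in both lines.

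Sites found in a single line were mostly weak, in members as in all genes. Of the 76 member sites of A549/DDP alone, 9 held a strong peak (11.8%, against 16.2% of such sites over all genes), and the median of their smallest p was 6.05e-05. Of the 18 sites of A549 alone, 0 did (against 15.2%), with a median of 0.000497. Of the 122 sites in both lines, 89 held a strong peak in A549/DDP (73.0%, against 66.8%) and 64 in A549 (52.5%, against 60.9%).

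**Figure D3:**
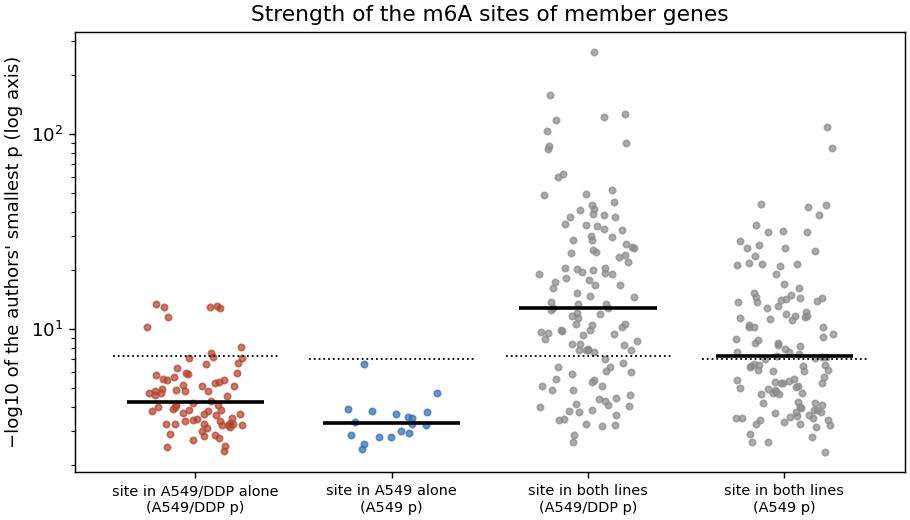
−log10 of the authors' smallest p at each member site (log axis), for 76 sites of A549/DDP alone, 18 of A549 alone and 122 common ones, the last shown with the p of each list; points are sites, solid bars medians and dotted lines the median of all distinct peaks of that list. Sites of a single line mostly fall below the dotted line.

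Among the lysine demethylase genes, 7 of 11 had peaks in both lines and 4 in A549/DDP alone. KDM6B, which removes the Polycomb methyl mark, had its strongest peak in the same coding stretch in each line, 7.84-fold enriched in A549/DDP (chromosome 17, 7752001 to 7752720, p of 2.00e-21) and 17.6-fold in A549 (7752364 to 7752724, p of 7.94e-18). KDM2A, a demethylase that binds unmethylated CpG islands, had a 3′ UTR peak that began at the same base in both lists (chromosome 11, 67024631), with folds of 3.93 in A549/DDP and 3.51 in A549. KDM2A had 3 further sites in A549/DDP alone. KDM5A, which demethylates histones at active promoters, had 8.91-fold enrichment in A549/DDP (chromosome 12, 395329 to 404762) and 4.33-fold in A549 (394781 to 404760). KDM3B had folds of 3.25 in A549/DDP and 4.45 in A549 at an overlapping coding peak (chromosome 5). The members of A549/DDP alone were KDM3A (fold 7.04, p of 1.26e-06), KDM4A (2.44, p of 1.51e-06), KDM4B (8.60, p of 1.48e-05) and KDM5D (3.52, p of 0.000380). All 4 lacked a strong peak. KDM5C, a close copy of KDM5D, had no listed peak, and whether the pair shares reads was not tested.

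The KMT and SETD group, formed by symbol, had 13 members, 11 in both lines and 2 in A549 alone. SETD5, a SET domain protein gene, had the smallest p of all members in both lists, in a peak touching coding sequence and 3′ UTR: the fold was 10.9 in A549/DDP (chromosome 3, 9517206 to 9518163, p of 1.00e-263) and 13.6 in A549 (9517263 to 9518131, p of 1.00e-109). KMT2B, a trithorax-type methyltransferase, had a coding peak with folds of 12.9 in A549/DDP (chromosome 19, 36210902 to 36211731, p of 1.26e-45) and 9.02 in A549 (36210754 to 36212283, p of 3.98e-32). All 5 KMT2B sites were in both lines. SETDB1, which silences retroelements, had coding folds of 10.9 in A549/DDP (chromosome 1, 150933201 to 150935134) and 9.68 in A549 (150933242 to 150933570) at its strongest peaks. SETD3, which methylates actin, had folds of 3.86 in A549/DDP and 5.90 in A549 at a peak touching coding sequence and 3′ UTR (chromosome 14, minus strand, A549/DDP peak 99864922 to 99865342, A549 peak 99864922 to 99865282). KMT2D, an enhancer methyltransferase with the longest listed transcript of the members (19419 bases), had 11 sites, of which 4 were common, 4 belonged to A549/DDP alone and 3 to A549 alone. Its close relative KMT2C, chosen for mention after its values were seen, had weak peaks at 2 sites in A549/DDP and 1 in A549, with no site in common. SETD4 (fold 3.80, p of 0.00112) and SETD7 (12.4, p of 0.000955) were the only members listed in A549 alone, both with weak 3′ UTR peaks. The fold and p of SETD7 were those of peaks in 134 genes of that list.

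Polycomb repressive complex 2 deposits the mark that KDM6B removes. EZH2, its main catalytic subunit, had a coding peak of 4.86-fold enrichment in A549/DDP (chromosome 7, 148514357 to 148515168, p of 1.58e-13) and a weak one of 3.15 at the same place in A549 (148514386 to 148515139, p of 2.82e-07). EZH1, the alternative catalytic subunit, had overlapping 3′ UTR peaks with folds of 3.98 in A549/DDP and 3.77 in A549 (chromosome 17). EED, the subunit that binds the mark, had a weak peak touching 5′ UTR and coding sequence in A549/DDP alone (fold 11.7, p of 1.29e-05). The EED fold and p were those of peaks in 11 genes. SUZ12 had no listed peak.

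The strongest peaks of the 4 histone deacetylase genes listed in both lines all touched the 3′ UTR. HDAC1 and HDAC2, catalytic subunits of several corepressor complexes, had small folds: HDAC1 had 2.86 in A549/DDP and 2.71 in A549 (chromosome 1), and HDAC2 had 3.36 in A549/DDP and 2.31 in A549 (chromosome 6). HDAC10, a polyamine deacetylase, had a 3′ UTR peak with folds of 11.6 in A549/DDP and 8.35 in A549 (chromosome 22, minus strand, A549/DDP peak 50683612 to 50683881, A549 peak 50683612 to 50683851). HDAC7, a class IIa enzyme, had folds of 2.95 in A549/DDP (chromosome 12, 48176505 to 48176804) and 3.59 in A549 (48176983 to 48177401) at its strongest peaks, which lay at different 3′ UTR positions. At the first of them HDAC7 had 2.95 in A549/DDP and 2.06 in A549, and at the second 1.77 in A549/DDP and 3.59 in A549. HDAC5, also class IIa, was the only one of the 15 members of A549/DDP alone with a strong peak, in coding sequence (chromosome 17, 42164791 to 42165058, fold 4, p of 2.51e-12).

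Among the DNA methylation genes only the maintenance enzyme DNMT1 had peaks in both lines. In A549/DDP the fold of its coding peak was 6.14 (chromosome 19, 10270562 to 10287979, p of 1.00e-90), and in A549 it was 4.51 (10270531 to 10283825, p of 6.31e-27). The de novo methyltransferase gene DNMT3A and the methylcytosine oxidase genes TET2 and TET3 had weak peaks in A549/DDP alone (p of 0.000158, 0.00427 and 0.000158). The strongest peaks of DNMT3A and TET3 had the same fold, 16.4, and the same p, a pair of values listed for 87 genes in that list. DNMT3B and TET1 had no listed peak.

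SWI/SNF and related genes had 13 members, 10 in both lines and 3 in A549/DDP alone. The core subunit SMARCE1 had a peak touching coding sequence and 3′ UTR with folds of 4.19 in A549/DDP (chromosome 17, 38785031 to 38787927, p of 1.00e-159) and 2.53 in A549 (38784987 to 38787883, p of 2.00e-44). SMARCC2, a scaffold subunit, had coding folds of 6.56 in A549/DDP (chromosome 12, 56559427 to 56565121, p of 1.00e-127) and 7.56 in A549 (56559451 to 56565118, p of 3.98e-29). Its paralog SMARCC1 had 5.31 in A549/DDP (chromosome 3, 47663724 to 47702859, p of 1.00e-104) and 2.84 in A549 (47663814 to 47680256, p of 2.00e-14). SMARCC1 had 4 further sites, all in A549/DDP alone, the strongest in coding sequence (p of 8.13e-09). ARID1A, the DNA-binding subunit of canonical SWI/SNF, had its highest fold in a peak touching 5′ UTR and coding sequence, 66.9 in A549/DDP (chromosome 1, 27022614 to 27023334) and 20.7 in A549 (27022704 to 27023334), and its smallest p in another peak (27105657 to 27107561, fold 7.17, in A549/DDP; 27105854 to 27107110, fold 7.93, in A549). ARID1B, its alternative, had 8 sites, 4 of them in A549/DDP alone, and no strong peak in A549. One of those sites was strong in A549/DDP at p of 3.98e-14 (chromosome 6, 157527494 to 157527794, fold 6.10). SMARCA4, an ATPase subunit chosen for mention after its values were seen, had no strong peak in A549/DDP (smallest p of 1.82e-07) and 5 in A549. At a site touching coding sequence and 3′ UTR its folds were 2.79 in A549/DDP (p of 7.41e-06) and 6.98 in A549 (chromosome 19, 11170543 to 11172778, p of 2.00e-14). ARID2, SMARCA1, an ISWI ATPase, and SMARCD1 had weak peaks in A549/DDP alone (p of 1.23e-05, 1.02e-06 and 0.000603).

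Of the other ARID genes, 4 were in both lines and ARID5B in A549/DDP alone (fold 23.5, p of 2.04e-06). The ARID5B fold and p were those of peaks in 23 genes. ARID4A and ARID4B, subunits of the SIN3 corepressor, had coding peaks with folds of 7.93 and 8.73 in A549/DDP (p of 3.16e-38 and 1.26e-30) and of 5.85 and 3.80 in A549 (p of 5.01e-13 and 7.94e-14). ARID4A had 6 sites, 4 of them in A549/DDP alone and each of those weak. ARID3A, a DNA-binding regulator, had a strong peak touching 5′ UTR and coding sequence in A549/DDP (fold 21.1, p of 3.16e-11) and a weak coding peak at the same place in A549 (13.2, p of 0.000550). The fold and p of that A549 peak were those of peaks in 113 genes. ARID5A had a 3′ UTR peak that was weak in A549/DDP (3.85, p of 0.000372) and strong in A549 (5.78, p of 2.95e-09). ASXL1, a cofactor of the BAP1 deubiquitinase, had a peak touching 5′ UTR and coding sequence with a fold of 91.5, the highest strong fold of the members, in A549/DDP (chromosome 20, 30946275 to 30956819, p of 2.51e-30) and of 28.1 in A549 (30946341 to 30956826, p of 1.00e-15), below the 35.5 of CHD3. ASXL1 had 7 sites, 6 in both lines. ASXL2 had weak peaks in both lists (smallest p of 5.13e-06 in A549/DDP and 2.09e-06 in A549).

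**Figure D4:**
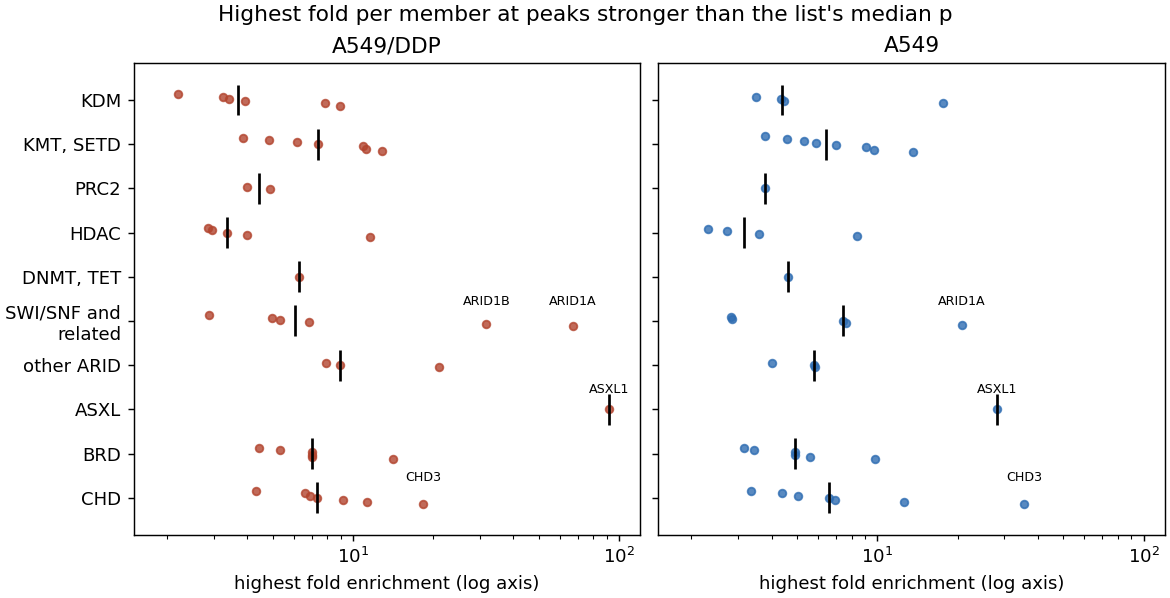
Highest fold enrichment (log axis) of each member at a strong peak, by family, in A549/DDP (left, 44 members) and A549 (right, 40 members); points are genes and bars family medians. ASXL1 had the highest value in A549/DDP (91.5) and CHD3 in A549 (35.5); heights are not comparable between the lists.

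All 7 bromodomain genes had peaks in both lines. BRD3, a BET gene whose protein binds acetylated histones, had folds of 6.12 in A549/DDP and 5.58 in A549 at its strongest peaks, which touched the 3′ UTR (chromosome 9). BRD7, a bromodomain gene of SWI/SNF, had coding folds of 3.57 in A549/DDP and 3.14 in A549 (chromosome 16). BRD9, also of SWI/SNF, had 4.02 at a peak touching the 5′ UTR in A549/DDP and 4.72 at one touching the 3′ UTR in A549 (chromosome 5). At the 5′ UTR site BRD9 had 4.02 in A549/DDP and 3.38 in A549, and at the 3′ UTR site 4.05 in A549/DDP and 4.72 in A549. BRD2 was listed on an alternate contig of the major histocompatibility region only, so its values rest on that contig.

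Of the 9 CHD remodeller genes, 7 had peaks in both lines, each with a strong peak in either list. CHD3, an ATPase of the NuRD corepressor, had 7 sites, each in both lines. Its strongest peak touched the 3′ UTR (chromosome 17, 7814969 to 7815598, fold 5.99, p of 1.00e-118 in A549/DDP; 7814882 to 7815600, fold 5.22, p of 7.94e-86 in A549). CHD4, the alternative NuRD ATPase, had its strongest peak in coding sequence in A549/DDP (chromosome 12, 6687198 to 6690520, fold 4.89, p of 1.00e-123) and in a peak touching the 5′ UTR in A549 (6710598 to 6715563, fold 6.06, p of 1.58e-32). At the coding site CHD4 had folds of 4.89 in A549/DDP and 2.87 in A549, and at the 5′ UTR site 6.15 in A549/DDP and 6.06 in A549. CHD4 had 6 sites, 4 in both lines and 1 in each line alone. CHD6 had coding folds of 10.0 in A549/DDP and 6.91 in A549 (chromosome 20). CHD7, the gene mutated in CHARGE syndrome, had its strongest peak at different sites of chromosome 8. At the site touching coding sequence and 3′ UTR, the strongest in A549/DDP, the CHD7 folds were 7.04 in A549/DDP and 12.6 in A549. At the coding site that was strongest in A549 they were 4.65 in A549/DDP and 3.56 in A549. CHD1 (fold 3.15, p of 5.01e-07) and CHD5 (3.10, p of 1.91e-05) had weak peaks in A549/DDP alone.

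Peaks touching the 5′ UTR were listed for more members in A549/DDP than in A549, as they were over all genes. The counts were 16 of 70 in A549/DDP (22.9%, against 23.9% of all genes) and 5 of 57 in A549 (8.77%, against 15.2%). Of the 55 members listed in both lines, 5 had such a peak in both (9.09%, against 14.4% of all genes listed in both). Such a peak was listed in A549/DDP alone for 7 (12.7%, against 10.8%) and in A549 alone for 0 (against 2.03%). The share for A549/DDP alone was near that of all genes. The 5 with such a peak in both lines were ARID1A, ASXL1, BRD9, CHD4 and KMT2E. In A549 the KMT2E peaks with this label were on a transcript of 5139 bases. Overlapping KMT2E peaks on longer transcripts were labelled coding. Among the 7 of A549/DDP alone were ARID3A, CHD3, CHD8, KDM2A, SMARCC1 and SMARCC2. In ARID3A, CHD3 and CHD8 the A549/DDP peak overlapped an A549 peak that was labelled coding only: that of CHD3 began at 7788124 in A549/DDP and its counterpart at 7788154 in A549. In KDM2A, SMARCC1 and SMARCC2 it overlapped none, with A549/DDP folds of 14.1 (p of 5.50e-05), 7.43 (p of 1.55e-05) and 27.0 (p of 2.24e-07). CHD5, DNMT3A, EED and HDAC5, listed in A549/DDP alone, also had 5′ UTR peaks. With the equal number of strongest peaks, 35 members were listed in both lines. Of these 35, 2 had such a peak only in the A549/DDP list, in place of 7 of 55. The matching share of all genes is not given, so whether members differ from all genes there was not tested.

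RefSeq start sequences (GRCh38.p14) were matched for 62 of the 72 members, and 6 of the 16 members with a 5′ UTR peak had a single start in that table. The first 50 transcribed bases were searched on the transcript strand for GGAC and AGAC, forms of the core in which m6A is usually made. CHD8, EED and KMT2E held a match and ARID1A, CHD3 and CHD4 did not. A match was held by 28.4% of the 95 starts of members, against 32.4% of all 35116 starts. The matches are shown, with the motif in capitals, because they lie at starts of genes with a listed 5′ UTR peak. A 5′ UTR label belongs to a transcript, so the peak need not lie at the start shown. The build differs from that of the peaks, so whether a match lies inside a peak was not tested.
CHD8 (chr14:21437226-21437255, minus strand): agggggaactggtgctggagAGACagggag
EED (chr11:86244753-86244782, plus strand): attccacAGACtttcgctccctagcagcgg
KMT2E (chr7:105014225-105014254, plus strand): tgagcgggcgcagggggccgagtcggAGAC

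Other chromatin genes that the rule does not take gave similar counts. Of 99 such genes, 79 had a listed peak, 60 of them in both lines (75.9%, against 69.5% of all listed genes). A peak was listed in A549/DDP alone for 16 (20.3%, against 18.9%) and in A549 alone for 3 (3.80%, against 11.6%). The share in A549/DDP alone was near that of all listed genes. Among the genes listed in both lines were the acetyltransferase genes CREBBP (highest strong fold 6.10 in A549/DDP and 13.2 in A549) and EP300 (7.11 in A549/DDP and 7.89 in A549). The corepressor genes NCOR1 (7.71 in A549/DDP and 8.26 in A549) and SIN3A (7.38 in A549/DDP and 8.67 in A549) were also in both. The remodeller genes INO80 (strong fold 3.69) and HELLS (2.44) were listed in A549/DDP alone; these 6 were chosen after their values were seen. CBX2, PRMT7 and SIRT3 were listed in A549 alone. Of 108 protein-coding symbols of the reference table that meet the rule, 33 had no listed peak, among them KMT2A, KDM2B, KDM6A, HDAC3, HDAC4 and HDAC6. The same share over all protein-coding symbols is not given here.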

How the data were processed

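The authors deposited a peak list for each line (33465 rows in A549/DDP, 28601 in A549), taken here as pull-down against input of the same line, which the files do not state. HISAT2 and hg19 are named per the submitters' processing notes. Not given in the sources used here are the caller, threshold, scaling and annotation. Fold enrichment is a linear ratio per peak and the p-value is the caller's, both as deposited by the authors; whether p was adjusted is not stated. Rows that repeated a position, its strand and its blocks for several transcripts were taken as 1 distinct peak (32069 and 27319), and overlapping peaks were merged into regions within a list and into sites over both lists. Peaks were shared if they had at least 1 exonic base in common. The members and lists were chosen with earlier results of these data known. Named were, per family, up to 4 members with the best worse rank by p over both lists, all members of small families, those of a single line, the 5 with most regions, and those with a 5′ UTR peak in a single line. 1 member counts in the totals but is not reported here by name. Of the 72 member symbols, 71 are current in RefSeq (SETD8 is now KMT5A). Overlap code was run on listed A549 peaks, some kept in place and some given a changed chromosome name, against copies of the kept ones. It called 300 of 300 kept peaks shared and 0 of the moved ones, an outcome fixed by the construction. Bases were also counted directly for 282 peaks (0 wrong). Intervals are exact binomial (SciPy 1.17.1, Python 3.11.15). Folds of at least 2 or 5, equal numbers of peaks, current symbols, merged regions, 50% overlap and strand were varied.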

Additional observations from a re-analysis of the deposited data

How the results depend on the processing

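Over 8 alternatives and 13 results, 45 of 67 recomputed values stayed within 1.5 times the count, or within the binomial interval of the share, and 22 did not; the cause was not tested. With an equal number of strongest peaks of each list, 47 members stayed listed: 7 for A549/DDP alone, 5 for A549 alone and 35 for both. Of the 35 in both, 2 had a 5′ UTR peak only in the A549/DDP list, against 7 of 55 in the full lists. The share of all genes is not given for that count. The coding share of A549/DDP peaks was then 89.0%, and in A549 the 5′ UTR share was 6.29% and the 3′ UTR share 39.4%. At a fold of at least 5, 52 members stayed listed: 19 for A549/DDP alone, 4 for A549 alone and 29 for both. Shares over all genes at that fold are not given, so whether these counts differ from those of all genes was not tested. The shared percentages were then 51.8% of A549/DDP and 74.0% of A549 member peaks, the 5′ UTR shares 16.1% in A549/DDP and 6.11% in A549, the A549/DDP 3′ UTR share 20.6% and the A549 coding share 88.5%. With merged regions the 3′ UTR shares were 33.8% in A549/DDP and 37.7% in A549, and the coding shares 77.9% in A549/DDP and 76.7% in A549. Requiring 50% of the peak gave 51.8% shared in A549/DDP and 84.9% in A549. Shares over all peaks are not given at these settings. Whether the differences between member peaks and all peaks hold there was not tested. With current symbols, which add 3 genes, 1 member had a 5′ UTR peak in A549 alone. Leaving out alternate contigs, chosen after seeing the data, removed BRD2 (54 members in both). No paired analysis was possible because each group has 1 library and no result comes from a test. Depth is unknown, so an unlisted peak may be one that was not detectable.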
